A study of Mus musculus with 24 samples.

Results

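The Hox genes were taken as every gene of the deposited count table whose name is Hox followed by a cluster letter from a to d and a paralog number, which gave 39 of 55401 genes. They comprise 11 genes of the Hoxa cluster (chr6:52155590-52260880), 10 of the Hoxb cluster (chr11:96194316-96368256), 9 of the Hoxc cluster (chr15:102921103-103036852) and 9 of the Hoxd cluster (chr2:74668310-74765142), all in the GRCm38 build. They were measured by bulk RNA-seq of polyA RNA from the mouse maternal-fetal interface (MFI), which joins the decidua of the mother to the placenta of the fetus, at 4 gestation days (gd), namely gd10.5, gd14.5, gd16.5 and, last, gd19.5. Each stage had 3 libraries from wild-type (WT) mice and 3 from homozygous C1qtnf6-KO mice, 24 libraries in 8 groups. *C1qtnf6* encodes the secreted protein CTRP6, which the placenta makes in large amounts, and the study compared KO with WT at each stage to see what its loss changes at the MFI. The KO was made by CRISPR-Cas9 removal of exons on a C57BL/6 background and is constitutive, not limited to a cell type. Apart from this allele the labels name no agent or second allele in either genotype. They do not say whether a library holds 1 animal or several, nor that replicates came from separate dams, so the p-values below measure the spread between these libraries, which may be technical.

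Hox genes encode homeodomain transcription factors that give cells their position along the body axis, and their order in a cluster follows the order in which they are used, from low paralog numbers at the head end to high numbers at the tail end. In the female reproductive tract the Hoxa genes of high number are used in sequence, with *Hoxa9* in the oviduct, *Hoxa10* and *Hoxa11* in the uterus, and *Hoxa13* in the cervix and upper vagina. Uterine stroma keeps *Hoxa10* and *Hoxa11* in adult life, and both are needed for implantation and for the change of stromal cells into decidua.

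The start regions of 4 genes are shown first: the uterine pair *Hoxa10* and *Hoxa11*, the highest of the 39 genes, *Hoxa13*, the Hoxa gene of highest number, which rose after gd10.5, and *Hoxd11*, which fell most in WT. RefSeq promoters (GRCm38.p6) were matched by symbol for 22 of the 39 genes, some with a second start, 24 in all, and the 250 bases before the start site were searched on both strands. Capitals mark TATAAA, the letters of the TATA box, and TGATTNAT, those of the joint site of a PBX protein with a HOX protein. Matches were taken by letters alone, whatever their distance from the start site. TTTATNG, a site read by HOX proteins of high paralog number and by CDX proteins, was searched as well and has no match in the windows printed. Both motifs in capitals lie on the opposite strand here, so they read TTTATA and ATCAATCA. All sequences run 5′ to 3′ on the strand of the gene.
*Hoxa10*, upstream start, chr6:52240855-52241104, minus strand: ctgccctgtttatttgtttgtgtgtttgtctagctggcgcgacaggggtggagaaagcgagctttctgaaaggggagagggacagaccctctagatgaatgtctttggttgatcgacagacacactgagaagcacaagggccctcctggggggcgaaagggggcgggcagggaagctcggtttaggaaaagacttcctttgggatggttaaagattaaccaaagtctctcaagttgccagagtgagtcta
*Hoxa10*, downstream start, chr6:52234940-52235189, minus strand: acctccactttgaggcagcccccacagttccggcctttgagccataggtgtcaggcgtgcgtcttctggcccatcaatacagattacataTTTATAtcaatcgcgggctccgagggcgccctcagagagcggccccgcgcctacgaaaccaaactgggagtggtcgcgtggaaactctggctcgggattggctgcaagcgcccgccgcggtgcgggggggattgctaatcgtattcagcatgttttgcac
*Hoxa11*, chr6:52245811-52246060, minus strand: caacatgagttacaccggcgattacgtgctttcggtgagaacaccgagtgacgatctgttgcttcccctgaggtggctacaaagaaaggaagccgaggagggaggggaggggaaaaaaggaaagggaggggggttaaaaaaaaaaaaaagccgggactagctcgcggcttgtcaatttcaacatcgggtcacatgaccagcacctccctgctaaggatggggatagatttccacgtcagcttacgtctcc
*Hoxa13*, chr6:52260881-52261130, minus strand: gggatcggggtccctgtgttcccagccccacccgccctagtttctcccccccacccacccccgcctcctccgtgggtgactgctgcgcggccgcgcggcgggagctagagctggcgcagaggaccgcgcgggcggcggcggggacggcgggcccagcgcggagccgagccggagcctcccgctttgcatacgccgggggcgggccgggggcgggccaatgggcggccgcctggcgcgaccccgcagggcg
*Hoxd11*, downstream start, chr2:74682073-74682322, plus strand: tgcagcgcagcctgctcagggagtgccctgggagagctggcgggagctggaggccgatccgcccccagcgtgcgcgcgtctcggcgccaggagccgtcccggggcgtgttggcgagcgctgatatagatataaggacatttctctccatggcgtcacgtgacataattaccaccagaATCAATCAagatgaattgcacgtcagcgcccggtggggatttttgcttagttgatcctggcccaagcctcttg

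The windows differed in base composition. The *Hoxa13* window held 80.0% G and C with 35 CpG, the *Hoxa11* window 52.0% with 13, the upstream *Hoxa10* window 51.6% with 7, and the downstream *Hoxa10* window 59.2% with 20. The median over the 24 Hox windows was 12.5 CpG, against 6 over all 32851 promoters of the table. TATAAA was in 4 of the 24 windows and in 12.4% of all promoters. TTTATNG was in 2 of the 24 and in 9.81% of all, and TGATTNAT in 2 of the 24 and in 2.82% of all. These matches describe letters in a short window and were not measured as binding sites.

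Total counts per library ranged from 20975717 to 37383108, so that 3 counts, taken as the limit of detection, stood for 0.0803 to 0.143 CPM, counts scaled to a common library total. *C1qtnf6* itself lay between 64.7 and 168 CPM in the WT libraries and between 0.0340 and 2.05 CPM in the KO libraries, as the labels say. Uterine stroma and decidua, spongiotrophoblast and endothelium markers were present in every library, while the embryo skeletal muscle markers *Myod1*, *Myog* and *Myf5* had at most 3 counts in each library. Among the embryo neural markers, *Neurog2* stood at 10.7 to 21.8 CPM in the libraries from gd14.5 on. *Pax6*, *Dcx* and *Elavl3* reached at most 2.02 CPM in any library. The library KO gd10.5 replicate 2 stood apart, with *Tpbpa*, a spongiotrophoblast marker, at 10140 CPM against 645 to 1769 CPM in the other gd10.5 libraries, and with Y-linked transcripts summing to 71.0 CPM against at most 0.311 CPM. The summed yolk sac endoderm markers (*Afp*, *Apoa1*, *Apoa4*, *Apob*, *Ttr*, *Amn* and *Cubn*) also differed within groups, from 15.4 to 3929 CPM in WT gd10.5, 1275 to 3901 CPM in KO gd10.5, 85.9 to 8180 CPM in WT gd16.5 and 169 to 22108 CPM in KO gd16.5. The called KO changes of Hox genes from gd10.5 to gd14.5 reported here are given with and without KO gd10.5 replicate 2. The KO changes of other genes at this step include that library. At gd16.5 the *Hoxa10* and *Hoxa11* differences between KO and WT are also given without each library of high yolk sac markers.

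Most Hox RNA of the MFI came from *Hoxa9* to *Hoxa11* and *Hoxd8* to *Hoxd11*, and the uterine genes *Hoxa10* and *Hoxa11* stood above all others. Of the 39 members, 20 reached a mean of 1 CPM in at least 1 group and 19 did not. Levels of different genes were compared in RPKM, which divides CPM by the exon length in kilobases. In WT gd10.5 the mean was 62.2 ± 12.7 RPKM (SD, n = 3) for *Hoxa10*, 46.1 ± 9.72 for *Hoxa11*, 22.4 ± 6.96 for *Hoxd10* and 9.09 ± 2.84 for *Hoxd9*. Below these came *Hoxd8* at 5.78 ± 1.76 RPKM and *Hoxa9* at 5.64 ± 1.24 RPKM, which did not differ beyond their spread, then *Hoxd11* at 3.26 ± 0.823 and *Hoxb9* at 2.08 ± 0.542 RPKM. The *Hoxa10* and *Hoxa11* intervals overlapped in the same way, although *Hoxa10* was the higher of the pair in each of the 24 libraries, with a *Hoxa11* to *Hoxa10* ratio of at most 0.809. This order has a limit. An antisense gene covers 35.0% of the *Hoxa11* exon bases and none of those of *Hoxa10*, and reads touching both genes count for neither. RPKM divides by the full length, so that of *Hoxa11* may be too low and the order of the pair is not settled.

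**Figure D1:**
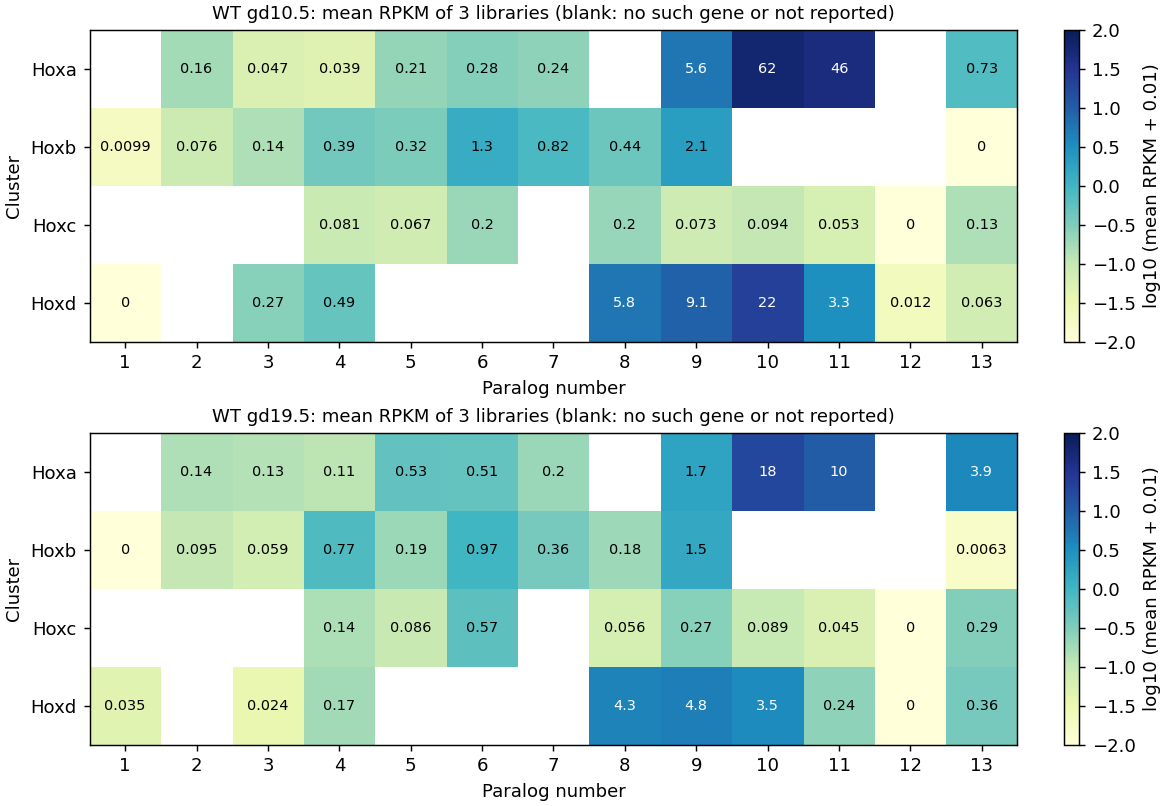
Mean RPKM of the Hox genes reported here in WT gd10.5 and WT gd19.5 by cluster (vertical) and paralog number (horizontal), with the number printed in each cell and the colour on a log10 scale. At gd10.5 the highest cells are *Hoxa10*, *Hoxa11* and *Hoxd10*, and at gd19.5 these are lower while *Hoxa13* is higher.

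The reproductive tract genes *Hoxa9* to *Hoxa11* made up 69.6% ± 2.19 (SD, n = 3) of all Hox RPKM in WT gd10.5. In the same group the Hoxd genes *Hoxd8* to *Hoxd11* made up 24.4% ± 2.09, and paralogs 9 to 11 of all clusters together made up 92.0% ± 1.00. By WT gd19.5 these shares were 53.4% ± 1.39, 22.4% ± 0.0403 and 71.7% ± 1.28. The 23 genes of paralogs 1 to 8 went from 7.39% ± 0.944 to 20.4% ± 0.680 of Hox RPKM, and the 6 genes of paralogs 12 and 13 from 0.605% ± 0.230 to 7.88% ± 1.09. In KO the share of *Hoxa9* to *Hoxa11* was 70.4% ± 0.787 for gd10.5, 63.6% ± 4.26 for gd14.5, 48.1% ± 4.76 for gd16.5 and 50.9% ± 3.13 for gd19.5. These are shares of a sum, so a fall of 1 gene raises the shares of the rest. The summed level of all 39 genes was 164 ± 36.7 RPKM in WT gd10.5 and 57.3 ± 3.71 RPKM in WT gd19.5.

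The 19 genes under 1 CPM in all groups were *Hoxa2*, *Hoxa3*, *Hoxa4*, *Hoxa6* and *Hoxa7*, *Hoxb1*, *Hoxb2*, *Hoxb3*, *Hoxb5* and *Hoxb13*, *Hoxc4*, *Hoxc5*, *Hoxc9*, *Hoxc10*, *Hoxc11* and *Hoxc12*, and *Hoxd1*, *Hoxd12* and *Hoxd13*. The highest group mean among them was 0.911 CPM, for *Hoxa7*. For 5 of them, *Hoxb1*, *Hoxb13*, *Hoxc12*, *Hoxd1* and *Hoxd12*, no library had more than 3 counts, so they were not detectable at this depth.

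Between gd10.5 and gd14.5 the reproductive tract genes *Hoxa9* to *Hoxa11* and the Hoxd genes *Hoxd9* to *Hoxd11* fell in both genotypes, while *Hoxa13* and *Hoxc13* rose. The comparison of neighbouring stages asks how Hox RNA at the MFI changes as the placenta matures, and a gene was called when edgeR gave a Benjamini-Hochberg adjusted p under 0.05 over all genes tested and a log2 fold change beyond 1 in size. In WT, 26 Hox genes passed the filter on low counts, 11 were called lower and 4 higher, where 11.6% and 10.7% of all genes tested were. In KO, 27 passed, and 11 were called lower and 4 higher, where 10.2% and 8.53% of all genes were. Of the genes called lower, 9 were called in both genotypes, which is 9 of the 11 in WT and 9 of the 11 in KO. These were *Hoxa9*, *Hoxa10*, *Hoxa11*, *Hoxb6*, *Hoxb9*, *Hoxd4*, *Hoxd9*, *Hoxd10* and *Hoxd11*. Among the genes called higher in both were *Hoxa13* and *Hoxc13*. The median log2 fold change of the Hox genes that passed was -0.77 in WT and -0.43 in KO, beside -0.0080 and -0.0021 for all genes tested, and it describes only genes that passed. In whole tissue, fewer uterine cells and less Hox RNA per uterine cell cannot be told apart.

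*Hoxa10*, the uterine gene needed for decidua formation, gave the highest values. *Hoxa10* measured 187, 250.3 and 172 CPM for gd10.5, 87.8, 89.1 and 83.5 CPM for gd14.5, 52.3, 44.9 and 85.6 CPM for gd16.5 and 60.8, 62.1 and 57.7 CPM for gd19.5 in the WT libraries. KO libraries of it gave 197, 106 and 247 CPM for gd10.5, 91.0, 106 and 62.0 CPM for gd14.5, 33.0, 41.5 and 43.5 CPM for gd16.5 and 55.9, 50.6 and 58.7 CPM for gd19.5. In WT every gd14.5 library lay below every gd10.5 library, and in KO the gd10.5 library replicate 2 lay as low as the highest gd14.5 library. The log2 fold change from gd10.5 to gd14.5 was -1.22 ± 0.19 (SE, adjusted p = 0.000145) in WT, a level 2.33 times lower, and -1.09 ± 0.27 (SE, adjusted p = 0.00738) in KO. The KO call was lost without KO gd10.5 replicate 3, at -0.81, or without KO gd14.5 replicate 3, at -0.90, and was -1.36 without KO gd10.5 replicate 2.

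*Hoxa11*, its partner in the uterus, fell as well. *Hoxa11* measured 99.2, 130.2 and 87.1 CPM for gd10.5, 36.2, 34.1 and 34.2 CPM for gd14.5, 22.8, 20.6 and 31.6 CPM for gd16.5 and 24.4, 24.6 and 22.7 CPM for gd19.5 in the WT libraries. Its KO libraries held 104, 56.5 and 140.0 CPM for gd10.5, 37.4, 41.7 and 26.4 CPM for gd14.5, 15.1, 13.5 and 16.3 CPM for gd16.5 and 23.7, 22.0 and 27.2 CPM for gd19.5. No gd14.5 library of either genotype reached a gd10.5 library of the same genotype. Its log2 fold change was -1.59 ± 0.15 (SE, adjusted p = 2.43e-06) in WT and -1.51 ± 0.27 (SE, adjusted p = 0.00134) in KO, or -1.79 without KO gd10.5 replicate 2. The antisense gene *Hoxa11os* covers 35.0% of the exon bases of *Hoxa11* on the other strand. Reads were counted at the default settings of the tool, which ignore strand and leave out reads that touch both genes, so the shared stretch adds to neither.

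*Hoxa9* was lower than its neighbours and fell too. *Hoxa9* measured 27.7, 39.5 and 27.3 CPM for gd10.5, 11.2, 9.58 and 8.66 CPM for gd14.5, 8.67, 6.72 and 9.09 CPM for gd16.5 and 8.88, 10.7 and 9.55 CPM for gd19.5 in the WT libraries. For KO the libraries gave 27.0, 17.2 and 41.1 CPM for gd10.5, 12.7, 14.3 and 7.92 CPM for gd14.5, 5.82, 7.42 and 5.65 CPM for gd16.5 and 7.56, 8.21 and 8.41 CPM for gd19.5. The gd14.5 libraries lay below the gd10.5 libraries in both genotypes. On the log2 scale the change was -1.67 ± 0.16 (SE, adjusted p = 2.58e-06) in WT and -1.29 ± 0.29 (SE, adjusted p = 0.00408) in KO, and the KO call was lost without KO gd10.5 replicate 3, at -0.93, and was -1.54 without replicate 2.

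**Figure D2:**
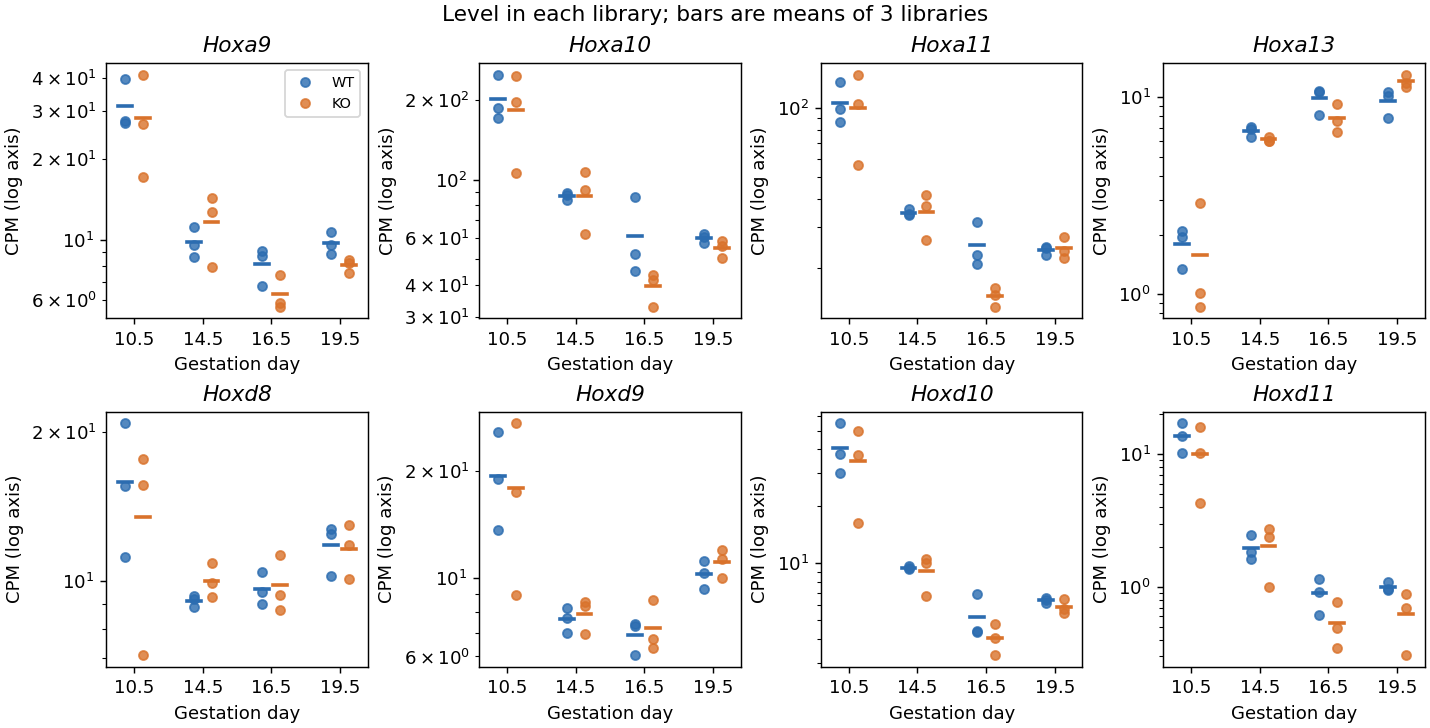
Level of 8 Hox genes in each library (points, CPM on a log axis) by gestation day, with WT in blue, KO in orange and the mean of 3 libraries as a bar. The group means of *Hoxa9*, *Hoxa10*, *Hoxa11* and *Hoxd8* to *Hoxd11* are highest at gd10.5, and those of *Hoxa13* are lowest there; KO gd10.5 replicate 2 is the lowest orange point of that stage in the first 7 of these genes and the highest for *Hoxa13*.

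*Hoxa13*, the gene at the tail end of the cluster, known for the cervix, the umbilical vessels and the fetal vessels of the placenta, went the other way. *Hoxa13* measured 2.10, 1.35 and 1.94 CPM for gd10.5, 6.94, 7.07 and 6.27 CPM for gd14.5, 8.18, 10.8 and 10.7 CPM for gd16.5 and 10.6, 10.2 and 7.88 CPM for gd19.5 in the WT libraries. The KO libraries gave 1.01, 2.89 and 0.865 CPM for gd10.5, 6.04, 6.03 and 6.28 CPM for gd14.5, 9.21, 6.68 and 7.57 CPM for gd16.5 and 11.3, 13.1 and 11.8 CPM for gd19.5. The lowest gd14.5 library was above the highest gd10.5 library in each genotype. As a log2 fold change this was 1.93 ± 0.19 (SE, adjusted p = 2.56e-06) in WT, 3.81 times higher, and 1.94 ± 0.35 (SE, adjusted p = 0.0013) in KO. The RPKM ratio of *Hoxa13* to *Hoxa11* was 0.0196, 0.00958 and 0.0207 in the WT gd10.5 libraries and 0.403, 0.385 and 0.321 in the WT gd19.5 libraries. KO gd10.5 replicate 2, with high *Tpbpa*, had the highest *Hoxa13* and the lowest *Hoxa9*, *Hoxa10* and *Hoxa11* of the gd10.5 libraries, and without it the KO change of *Hoxa13* was 2.704.

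In the Hoxd cluster the change was more negative the higher the paralog number, from *Hoxd8* to *Hoxd11*. The order did not extend to lower numbers. *Hoxd3* and *Hoxd4*, given below, fell more than *Hoxd8* in WT, and *Hoxd4* did so in KO as well. In WT the log2 fold change from gd10.5 to gd14.5 was -0.80 ± 0.18 (SE, adjusted p = 0.0019) for *Hoxd8*, -1.34 ± 0.19 (SE, adjusted p = 4.84e-05) for *Hoxd9*, -2.10 ± 0.20 (SE, adjusted p = 2.53e-06) for *Hoxd10* and -2.78 ± 0.23 (SE, adjusted p = 6.5e-07) for *Hoxd11*. In KO the same order gave -0.43, -1.18, -1.93 and -2.30, of which the last 3 were called. The *Hoxd8* change was past the limit on p in WT and under the limit on fold. Without KO gd10.5 replicate 2 the called changes were -1.49 for *Hoxd9*, -2.26 for *Hoxd10* and -2.66 for *Hoxd11*. The KO call of *Hoxd9* was lost without KO gd10.5 replicate 3, at -0.74. *Hoxd13*, beyond the undetected *Hoxd12*, had a log2 fold change of 1.43 ± 0.59 (SE, adjusted p = 0.0538) in WT and 0.97 ± 0.38 (SE, adjusted p = 0.0578) in KO, neither of them called.

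*Hoxd10* measured 37.5, 54.7 and 30.1 CPM for gd10.5, 9.73, 9.42 and 9.34 CPM for gd14.5, 4.38, 4.33 and 6.91 CPM for gd16.5 and 6.17, 6.38 and 6.59 CPM for gd19.5 in the WT libraries. KO libraries of it gave 37.4, 16.3 and 50.005 CPM for gd10.5, 10.54, 10.04 and 6.70 CPM for gd14.5, 4.03, 4.77 and 3.28 CPM for gd16.5 and 6.46, 5.45 and 5.72 CPM for gd19.5. Every gd10.5 library was above every later library in both genotypes. *Hoxd11* measured 13.8, 17.2 and 10.2 CPM for gd10.5, 2.45, 1.63 and 1.85 CPM for gd14.5, 1.16, 0.619 and 0.924 CPM for gd16.5 and 0.955, 1.08 and 0.959 CPM for gd19.5 in the WT libraries. Its KO libraries held 10.2, 4.26 and 16.0 CPM for gd10.5, 2.39, 2.73 and 0.995 CPM for gd14.5, 0.348, 0.493 and 0.775 CPM for gd16.5 and 0.699, 0.886 and 0.306 CPM for gd19.5. Here too each gd10.5 library exceeded all later libraries of its genotype, including KO gd10.5 replicate 2, the lowest.

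*Hoxd9* measured 18.9, 25.7 and 13.6 CPM for gd10.5, 7.00, 8.23 and 7.70 CPM for gd14.5, 7.39, 6.05 and 7.30 CPM for gd16.5 and 10.4, 11.1 and 9.30 CPM for gd19.5 in the WT libraries. For KO the libraries gave 17.4, 8.94 and 27.3 CPM for gd10.5, 8.30, 8.52 and 6.96 CPM for gd14.5, 8.66, 6.71 and 6.34 CPM for gd16.5 and 9.96, 11.3 and 12.02 CPM for gd19.5. The gd14.5 libraries were below the gd10.5 libraries in each genotype, and the gd19.5 libraries were above the gd16.5 libraries. *Hoxd8* measured 15.6, 20.8 and 11.2 CPM for gd10.5, 8.84, 9.20 and 9.34 CPM for gd14.5, 9.50, 8.97 and 10.4 CPM for gd16.5 and 12.4, 12.7 and 10.3 CPM for gd19.5 in the WT libraries. The KO libraries gave 15.6, 7.08 and 17.6 CPM for gd10.5, 10.9, 9.89 and 9.26 CPM for gd14.5, 11.3, 9.36 and 8.75 CPM for gd16.5 and 10.1, 12.9 and 11.8 CPM for gd19.5. In WT the groups of gd10.5 and gd14.5 did not overlap, and in KO they did, since replicate 2 of KO gd10.5 was the lowest of the 24.

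The ratio of a Hoxd gene to its neighbour within a library does not depend on the scaling of the library. In RPKM, *Hoxd10* to *Hoxd9* was 2.33, 2.50 and 2.597 in the WT gd10.5 libraries, 1.64, 1.35 and 1.43 for gd14.5, 0.697, 0.841 and 1.11 for gd16.5 and 0.701, 0.675 and 0.833 for gd19.5. The gd10.5 ratios all lay above the gd14.5 ratios, and the gd14.5 ratios all above the gd16.5 ratios. *Hoxd9* to *Hoxd8* was 1.56, 1.59 and 1.57 at WT gd10.5 and 1.02, 1.15 and 1.06 at WT gd14.5. *Hoxd11* to *Hoxd10* was 0.159, 0.135 and 0.147 at WT gd10.5 and 0.108, 0.0746 and 0.0854 at WT gd14.5, so all 3 neighbour ratios were lower in each WT gd14.5 library than in any WT gd10.5 library. In KO replicate 2 of gd10.5, whose *Hoxd8* to *Hoxd11* levels were the lowest of the stage, the ratios were 1.62 for *Hoxd9* to *Hoxd8*, 2.14 for *Hoxd10* to *Hoxd9* and 0.113 for *Hoxd11* to *Hoxd10*. In KO the first 2 ratios were lower in each gd14.5 library than in any gd10.5 library, and *Hoxd11* to *Hoxd10* overlapped, with 0.117, 0.113 and 0.138 at gd10.5 and 0.0978, 0.117 and 0.0641 at gd14.5. With 3 libraries against 3 an exact permutation test cannot go below p = 0.1, and the ratios were not tested.

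**Figure D3:**
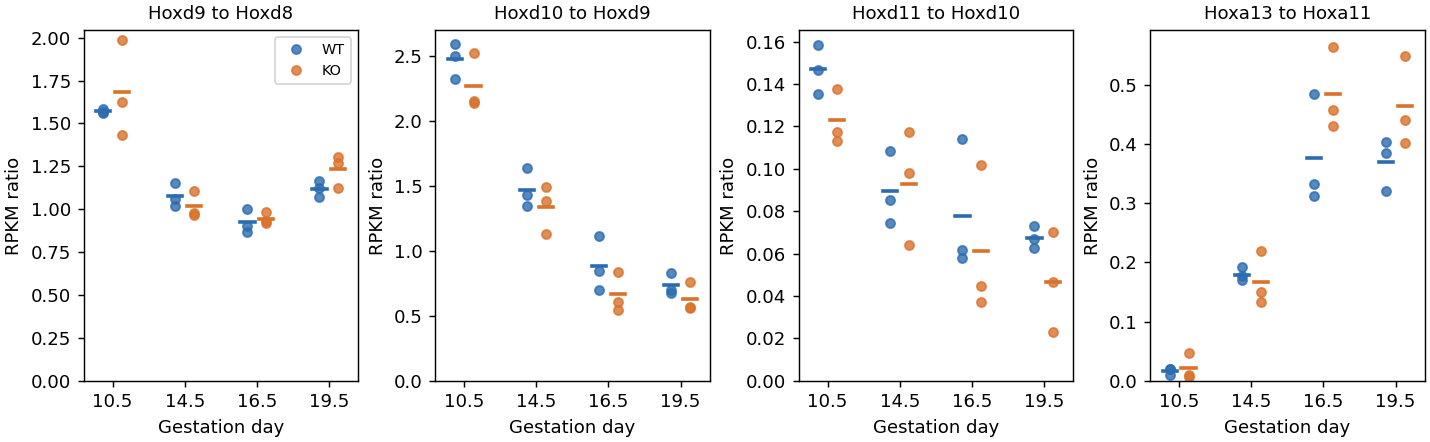
RPKM ratio of neighbouring Hox genes in each library (points) by gestation day, with WT in blue, KO in orange and group means as bars, on axes that start at 0. The means of the 3 Hoxd ratios are highest at gd10.5, with overlap between KO gd10.5 and KO gd14.5 for *Hoxd11* to *Hoxd10*, and the *Hoxa13* to *Hoxa11* ratio is lowest at gd10.5.

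The Hoxb, Hoxc and remaining Hoxd genes were low. *Hoxb5*, *Hoxb6*, *Hoxb7*, *Hoxb9*, *Hoxc8*, *Hoxd3* and *Hoxd4* were called lower in at least 1 genotype, and *Hoxc13* higher in both. *Hoxb9*, the highest of the Hoxb cluster, had group means from gd10.5 to gd19.5 of 5.37, 1.86, 1.98 and 3.93 CPM in WT and 4.94, 2.02, 2.92 and 4.11 CPM in KO, and its log2 fold change from gd10.5 to gd14.5 was -1.52 ± 0.21 (SE, adjusted p = 4.85e-05) in WT and -1.29 ± 0.36 (SE, adjusted p = 0.0122) in KO. *Hoxb6* had means of 2.62, 1.13, 1.53 and 1.91 CPM in WT and 2.80, 0.943, 1.52 and 2.17 CPM in KO and changes of -1.20 ± 0.24 (SE, adjusted p = 0.000777) and -1.56 ± 0.36 (SE, adjusted p = 0.00528). *Hoxb5* was called in WT, with -1.05 ± 0.28 (SE, adjusted p = 0.00633), and *Hoxb7* in KO, with -1.16 ± 0.27 (SE, adjusted p = 0.00512). Genes called in 1 genotype alone are not shown to differ between the genotypes, and the interaction of genotype and stage called no Hox gene. *Hoxb5* lost its call without WT gd10.5 replicate 1, at -0.96, or WT gd14.5 replicate 1, at -0.88, and *Hoxb7* without KO gd10.5 replicate 3, at -0.95. The call of *Hoxb9* in KO was lost without KO gd14.5 replicate 3, with an adjusted p of 0.0506. Leaving out KO gd10.5 replicate 2 gave -1.83 for *Hoxb6*, -1.34 for *Hoxb7* and -1.57 for *Hoxb9*, all called.

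Group means in the order of the stages were 0.995, 1.55, 1.65 and 1.97 CPM in WT and 1.07, 1.38, 1.92 and 1.88 CPM in KO for *Hoxb4*. For *Hoxb5* they were 0.903, 0.444, 0.633 and 0.527 CPM in WT and 0.707, 0.410, 0.311 and 0.523 CPM in KO. Those of *Hoxb7* were 1.27, 0.768, 0.419 and 0.552 CPM in WT and 1.22, 0.546, 0.491 and 0.512 CPM in KO, and those of *Hoxb8* 1.16, 0.584, 0.469 and 0.478 CPM in WT and 0.944, 0.535, 0.633 and 0.747 CPM in KO. *Hoxb4* was the one Hoxb gene named here whose mean was lowest at gd10.5 in both genotypes, with a log2 change to gd14.5 of 0.63 ± 0.22 (SE, adjusted p = 0.0248) in WT, under the limit on fold.

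The exons of *Hoxd4* and *Hoxd3* overlap in the annotation, with 62.8% of the *Hoxd3* and 52.3% of the *Hoxd4* exon bases covered by another gene. *Hoxd4* had means of 1.46, 0.613, 0.494 and 0.498 CPM in WT and 1.44, 0.558, 0.453 and 0.457 CPM in KO and *Hoxd3* of 1.12, 0.331, 0.158 and 0.103 CPM in WT and 0.918, 0.277, 0.160 and 0.104 CPM in KO. *Hoxd4* was called lower at gd14.5 in both genotypes, with -1.21 ± 0.29 (SE, adjusted p = 0.00334) in WT and -1.37 ± 0.36 (SE, adjusted p = 0.00951) in KO. *Hoxd3* was called in WT, with -1.83 ± 0.42 (SE, adjusted p = 0.00238), and did not pass the filter on low counts in the KO fit. Without WT gd14.5 replicate 3 the *Hoxd4* change in WT was -0.99 and no longer past the limit, and without KO gd10.5 replicate 2 that in KO was -1.54 and called.

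*Hoxc13*, a paralog of *Hoxa13* known for hair and nail, rose from a low level. *Hoxc13* measured 0.241, 0.162 and 0.592 CPM for gd10.5, 2.16, 1.63 and 1.47 CPM for gd14.5, 0.620, 1.41 and 1.60 CPM for gd16.5 and 1.04, 0.485 and 0.625 CPM for gd19.5 in the WT libraries. KO libraries of it gave 0.224, 0.533 and 0.207 CPM for gd10.5, 1.26, 1.83 and 1.57 CPM for gd14.5, 0.348, 0.308 and 0.957 CPM for gd16.5 and 0.786, 0.443 and 0.681 CPM for gd19.5. All gd14.5 libraries were above all gd10.5 libraries, and the log2 fold change was 2.49 ± 0.46 (SE, adjusted p = 0.000476) in WT and 2.27 ± 0.46 (SE, adjusted p = 0.00246) in KO, or 2.83 without KO gd10.5 replicate 2. Among the Hoxa genes of low number, *Hoxa5* was called higher in WT, with 1.08 ± 0.38 (SE, adjusted p = 0.0261), and *Hoxa3* in KO, with 1.22 ± 0.32 (SE, adjusted p = 0.00915). Their means were 0.402, 0.893, 0.796 and 0.996 CPM in WT and 0.691, 1.08, 1.04 and 0.836 CPM in KO for *Hoxa5* and 0.285, 0.426, 0.551 and 0.769 CPM in WT and 0.305, 0.724, 0.640 and 0.588 CPM in KO for *Hoxa3*. *Hoxa5* lost its call without WT gd10.5 replicate 3, at 0.76, WT gd14.5 replicate 2, with an adjusted p of 0.0636, or WT gd14.5 replicate 3, at 0.90, and *Hoxa3* without KO gd10.5 replicate 2, at 0.99.

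*Hoxc8* followed single libraries rather than a group. *Hoxc8* measured 1.44, 0.0809 and 0.211 CPM for gd10.5, 0.237, 0.0829 and 0.126 CPM for gd14.5, 0.496, 0.133 and 0.0486 CPM for gd16.5 and 0.159, 0.112 and 0.208 CPM for gd19.5 in the WT libraries. Its KO libraries held 1.53, 0.228 and 1.80 CPM for gd10.5, 0.220, 0.129 and 0.0765 CPM for gd14.5, 0.149, 0.647 and 0.274 CPM for gd16.5 and 0.306, 0.204 and 0.409 CPM for gd19.5. It was above 1 CPM in WT gd10.5 replicate 1 and KO gd10.5 replicates 1 and 3, and at or below 0.647 CPM in the other 21 libraries. *Cubn*, a marker of yolk sac endoderm, stood at 291, 3.08 and 4.35 CPM in WT gd10.5 and 299, 48.3 and 410.2 CPM in KO gd10.5, so the same 3 libraries had the highest *Cubn* of the stage. At gd16.5 *Cubn* was 181, 10.4 and 11.8 CPM in WT and 144, 267 and 11.6 CPM in KO, where *Hoxc8* reached at most 0.647 CPM. The call of *Hoxc8* as lower at KO gd14.5, with -3.01 ± 0.73 (SE, adjusted p = 0.00635), rests on the higher 2 of 3 KO gd10.5 libraries and was -2.80 and -2.58 without replicate 1 or replicate 3 of that group, and -3.49 without replicate 2. All 7 yolk sac endoderm markers were called lower in the same comparison, and the part of yolk sac in it was not tested. *Hoxc6* was not called in any comparison and had means of 0.479, 0.815, 1.14 and 1.38 CPM in WT and 0.528, 1.02, 1.52 and 1.46 CPM in KO.

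**Figure D4:**
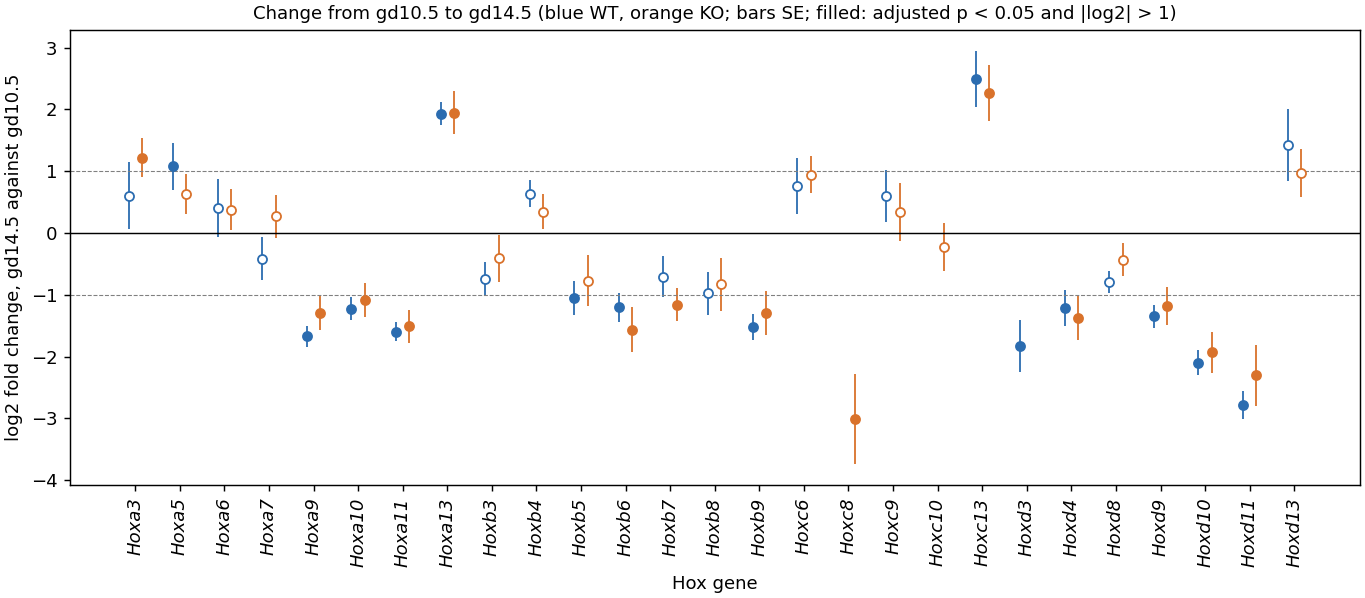
Log2 fold change from gd10.5 to gd14.5 (vertical, bars SE) of the Hox genes reported here that passed the filter, in cluster and paralog order, with WT in blue and KO in orange and filled points for called genes. Values for *Hoxd8* to *Hoxd11* step down from -0.80 to -2.78 in WT, and *Hoxa13* and *Hoxc13* lie above 1 in both genotypes.

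The fall of the uterine Hox genes went with a fall of most markers of uterine stroma and decidua in WT. Of 8 markers of uterine stroma and decidua, 6 were called lower and 1 higher at WT gd14.5 against gd10.5, and 4 lower and 1 higher in KO. *Prl3c1* went up, from 14.6, 13.7 and 6.26 CPM in the WT gd10.5 libraries to 43.1, 50.9 and 41.1 CPM in the WT gd14.5 libraries. The progesterone receptor gene *Pgr* stood at 112, 156 and 107 CPM in the WT gd10.5 libraries and at 57.3, 56.8 and 55.0 CPM in the WT gd14.5 libraries. *Hand2*, a stromal factor that acts downstream of progesterone, went from 161, 178 and 116 CPM to 34.3, 32.2 and 37.5 CPM. At the same step 3 of 5 markers of spongiotrophoblast and glycogen cells and 4 of the 5 labyrinth trophoblast markers that passed were called higher in WT, and the summed spongiotrophoblast markers went from 4928 to 5983 CPM to 30448 to 33129 CPM. Of the other lists in WT, 2 of 6 uterine smooth muscle markers were called higher and 1 lower, 1 of 4 uterine epithelium and 2 of 7 yolk sac endoderm markers were called lower, 1 of the 2 embryo neural markers that passed was called higher, and none of the 5 endothelium and 3 allantoic mesenchyme markers was called. The smooth muscle log2 fold changes called were 2.80 for *Myh11*, 3.26 for *Lmod1* and -1.13 for *Des*, and the neural marker was *Neurog2*.

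The list of uterine genes linked to *Hoxa10* or *Hoxa11* gave 7 called lower and 1 higher of 10 in WT, and 6 lower and none higher in KO. Those called lower in both genotypes were *Ptger4*, *Lif*, *Wnt4*, *Bmp2* and *Hand2*, which act in implantation and decidua formation. *Bmp2*, a secreted signal of the early decidua, had a log2 fold change of -3.70 in WT and -3.42 in KO. *Emx2*, a gene that HOXA10 is known to repress in the endometrium, was called lower in WT with -1.32, in the same direction as *Hoxa10*. *Ptger3*, a prostaglandin receptor gene, was the one called higher, with 1.60 in WT. This list shares *Pgr*, *Wnt4*, *Bmp2* and *Hand2* with the stroma list.

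Across the 24 libraries, the genes whose log2 CPM most resembled the mean of *Hoxa9*, *Hoxa10* and *Hoxa11*, out of 19270 genes ranked, were *Gatad1*, *Samd5*, *Thsd7a*, *Parp3* and *Asrgl1*, with Pearson's r of 0.991, 0.988, 0.988, 0.988 and 0.986. The libraries fall into stages, and after the mean of each group was removed r was 0.938, 0.912, 0.923, 0.931 and 0.866. *Gatad1* had a mean of 142 CPM in WT gd10.5 and 68.8 CPM in WT gd19.5. These values are a description over libraries that share tissue make-up, and they were chosen as the highest of the ranking.

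Proteins that work with Hox factors or act on the clusters were followed from lists. Of 9 genes for PBX, MEIS and PKNOX partners, *Pbx4* was called higher and *Pknox2* lower at gd14.5 against gd10.5 in both genotypes. The log2 fold change of *Pknox2* was -1.43 in WT and -1.03 in KO, and that of *Pbx4* 1.18 and 1.04. Of 8 genes for CDX factors and retinoic acid handling, *Cdx1* and *Cdx2* were called higher and *Cyp26a1*, which breaks retinoic acid down, lower in both genotypes. *Cdx1* stood at 0.894, 0.782 and 1.06 CPM and then 4.18, 5.83 and 3.74 CPM in WT, all higher at gd14.5, with a log2 fold change of 2.35 in WT and 1.79 in KO. Of 12 genes for Polycomb proteins and other chromatin regulators of Hox clusters, *Cbx7* alone was called, in WT, with 1.03, and none in KO. These levels were not tested for a link to Hox RNA.

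The clusters also hold 46 other genes of the table, antisense RNAs, other noncoding RNAs and microRNA genes among them. In WT 15 of them passed the filter, and 6 were called lower and 3 higher at gd14.5 against gd10.5, while in KO 13 passed, with 6 lower and 2 higher. *Hoxa11os*, the RNA antisense to *Hoxa11*, stood at 48.9, 49.1 and 32.8 CPM in the WT gd10.5 libraries and 9.63, 6.38 and 8.03 CPM in the WT gd14.5 libraries. All were lower at gd14.5, with a log2 fold change of -2.44 in WT and -2.25 in KO, beside -1.59 and -1.51 for *Hoxa11*.

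From gd14.5 to gd16.5 few Hox genes were called. In WT only *Hoxd11* was called, lower with -1.13 ± 0.27 (SE, adjusted p = 0.00914), and no Hox gene was called higher, where 2.55% and 3.04% of all genes tested were. In 1 fit of all 24 libraries *Hoxd11* was not called (adjusted p = 0.0961). Without WT gd14.5 replicate 1 or WT gd16.5 replicate 2 the count was 0, and without WT gd16.5 replicate 3 it was 2. Without the limit on fold the count was 5, with *Hoxa13* higher at 0.55 ± 0.17 (SE, adjusted p = 0.034) and *Hoxa11*, *Hoxd10* and *Hoxd11* among the genes lower. The shares of 2.55% and 3.04% hold with the limit on fold and are no background for this count, and no share without it is given. In KO, 5 were called lower and 1 higher, where 2.76% and 4.78% of all genes were. These were *Hoxa10* with -1.13 ± 0.27 (SE, adjusted p = 0.0173), *Hoxa11* with -1.24 ± 0.28 (SE, adjusted p = 0.0123), *Hoxc13* with -1.56 ± 0.43 (SE, adjusted p = 0.0315), *Hoxd10* with -1.17 ± 0.35 (SE, adjusted p = 0.0402) and *Hoxd11* with -1.93 ± 0.59 (SE, adjusted p = 0.0435). The one called higher was *Hoxc9*, with 1.35 ± 0.39 (SE, adjusted p = 0.0369), whose group means were 0.178, 0.283, 0.310 and 0.664 CPM in WT and 0.144, 0.185, 0.465 and 0.640 CPM in KO, and which DESeq2 did not call (adjusted p = 0.0795). The KO count rested on single libraries. It was 0 without KO gd14.5 replicate 2 or KO gd16.5 replicate 2, 1 without KO gd14.5 replicate 1 or KO gd16.5 replicate 1, and 3 without KO gd19.5 replicate 1 or replicate 3. *Pgr* and *Hand2* were also called lower in this step in KO, and all 7 yolk sac endoderm markers higher, and their part was not tested.

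From gd16.5 to gd19.5 no Hox gene was called in either genotype by edgeR or by DESeq2. An unadjusted p under 0.05 was found for 3 of 26 in WT and 1 of 27 in KO, beside 24% and 18.3% of all genes tested. Of all genes tested, edgeR called 1.2% higher and 0.939% lower in WT, and 0.255% and 0.439% in KO. The smallest adjusted p in WT was that of *Hoxb9*, with 0.99 ± 0.22 (SE, adjusted p = 0.0161), just under the limit on fold. Without any one of WT gd10.5 replicates 1, 2 or 3, WT gd16.5 replicate 1 or WT gd19.5 replicate 3, the WT count was 1. In KO the smallest belonged to *Hoxa11*, with 0.70 ± 0.28 (SE, adjusted p = 0.205).

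No Hox gene differed between KO and WT past the limits at any stage. Shares of all genes here and below are those of the edgeR fits, and none is given for DESeq2. At gd10.5, 22 Hox genes passed the filter and 0 were called by edgeR or by DESeq2, where 0.00572% of all genes were, which is *C1qtnf6* alone. The log2 fold change was -0.14 ± 0.32 (SE) for *Hoxa10* and -0.07 ± 0.33 for *Hoxa11*, with KO replicate 2 included, and without that library the count was 0 as well. None had an unadjusted p under 0.05, beside 0.801% of all genes, and *Hoxa7* alone, lower in KO, had libraries that did not overlap, beside 4.18% of all genes. At gd14.5, 27 passed, and 0 were called by edgeR or by DESeq2, 0 had an unadjusted p under 0.05 and 0 had libraries that did not overlap, where 0.0166%, 6.78% and 12.5% of all genes did. The log2 fold change at gd14.5 was -0.01 ± 0.15 (SE) for *Hoxa10* and 0.01 ± 0.14 for *Hoxa11*.

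At gd16.5, 22 passed and 0 were called by either tool, where edgeR called 0.00586% of all genes. *Hoxa11*, *Hoxa10* and *Hoxb5* had an unadjusted p under 0.05, all lower in KO, beside 11.1% of all genes. The libraries of 4 Hox genes did not overlap, these 3 and *Hoxd13*, beside 17.7% of all genes. The WT libraries of *Hoxa11* ranged from 20.6 to 31.6 CPM and the KO libraries from 13.5 to 16.3 CPM, and the log2 fold change was -0.73 ± 0.17 (SE, adjusted p = 0.363). That of *Hoxa10* was -0.62 ± 0.23 (SE, adjusted p = 0.433), that of *Hoxb5* -0.96 ± 0.38 (SE, adjusted p = 0.436) and that of *Hoxd13*, which was higher in KO, 0.58 ± 0.33 (SE, adjusted p = 0.5). None of these is past the limits. Without WT replicate 1, KO replicate 1 or KO replicate 2, the libraries of high yolk sac markers, the *Hoxa11* value was -0.79, -0.74 and -0.66 and the *Hoxa10* value -0.71, -0.51 and -0.66. Without WT replicate 3 they were -0.53 for *Hoxa11* and -0.29 for *Hoxa10*, and 0 were called without any one library. The summed uterine stroma and decidua markers lay at 1707 to 2525 CPM in WT and 1626 to 2237 CPM in KO at this stage, which overlap. Most of this sum was *Prl8a2*, at 1536 to 2356 CPM in WT and 1471 to 2070 CPM in KO. *Pgr*, *Esr1*, *Hand2* and *Wnt4* were lower in each KO library than in any WT library, while *Prl8a2*, *Nr2f2*, *Bmp2* and *Prl3c1* overlapped. Single markers of this list differed in size and direction, and none was called. The log2 fold change was -0.72 ± 0.23 (SE) for *Pgr*, -0.68 ± 0.24 for *Hand2*, -0.52 ± 0.22 for *Esr1* and -0.26 ± 0.12 for *Wnt4*. For *Prl8a2* it was -0.14 ± 0.20, for *Nr2f2* -0.11 ± 0.13, for *Bmp2* -0.07 ± 0.25 and for *Prl3c1* 0.33 ± 0.15. Groups did not overlap for the sums of uterine smooth muscle markers, at 426 to 629 CPM in WT and 328 to 409 CPM in KO, and of labyrinth trophoblast markers, at 679.7 to 817 CPM and 431 to 678 CPM, both lower in KO. Most of the smooth muscle sum was *Des*, at 370 to 570 CPM in WT and 284 to 362 CPM in KO. *Des* and *Myh11* did not overlap, while *Actg2*, *Cnn1*, *Myocd* and *Lmod1* did. The spongiotrophoblast and glycogen cell markers were higher in KO, at 28998 to 41059 CPM in WT and 47445 to 52877 CPM in KO, with no overlap. The part of tissue make-up in the Hoxa values was not tested.

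At gd19.5, 24 passed and 0 were called by either tool, where edgeR called 0.023% of all genes. An unadjusted p under 0.05 was found for *Hoxa9*, *Hoxa10* and *Hoxa13*, beside 13.5% of all genes, and libraries did not overlap for *Hoxa9*, *Hoxa13* and *Hoxd11*, beside 21.4%. The changes were small, with -0.29 ± 0.11 (SE, adjusted p = 0.303) for *Hoxa9*, -0.16 ± 0.07 (SE, adjusted p = 0.361) for *Hoxa10*, 0.31 ± 0.12 (SE, adjusted p = 0.328) for *Hoxa13* and -0.70 ± 0.34 (SE, adjusted p = 0.402) for *Hoxd11*. The stage comparisons and these comparisons share libraries, so their values are given side by side and not set against each other.

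**Figure D5:**
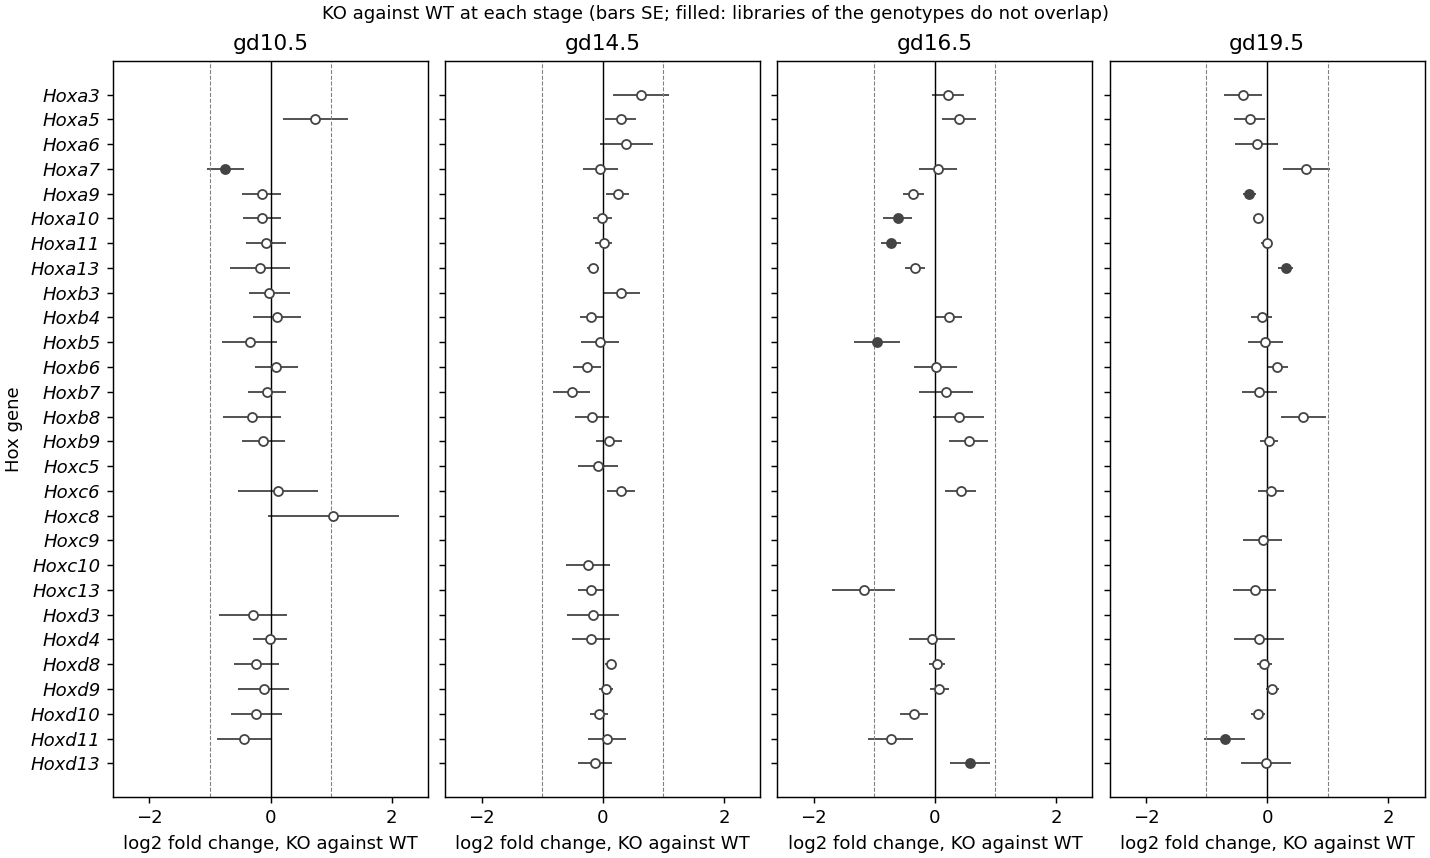
Log2 fold change of KO against WT (horizontal, bars SE) for the Hox genes reported here that passed the filter at each stage, with filled points where the libraries of the genotypes did not overlap and dashed lines at the limit on fold. Filled points number 1 in the first panel, 0 in the second, 4 in the third and 3 in the last, and none of them was called.

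Whether the KO effect differed between stages was tested over all 24 libraries. Of 29 Hox genes that passed, 0 were called by edgeR's F test of the interaction or by DESeq2, and 0 had an unadjusted p under 0.05, where 0% and 7.23% of all genes did. The smallest adjusted p among them was 0.709, for *Hoxa7*, whose group means were 0.695, 0.535, 0.657 and 0.570 CPM in WT and 0.412, 0.499, 0.692 and 0.911 CPM in KO. A p that misses the threshold does not show that the genotypes are alike. None of the lists of partners, CDX and retinoic acid genes, chromatin regulators, uterine genes, cluster transcripts or cell type markers held a gene called between KO and WT at any stage.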

How the data were processed

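Gene counts were used as the authors deposited them: reads of 24 stranded polyA libraries were trimmed with Trim Galore 0.6.4, aligned to GRCm38 with STAR 2.7.3a and counted per gene, unnormalized, with featureCounts (Subread 2.0.0), per the submitters' processing notes, and the study's methods give default settings for both tools. The annotation release is not given in the sources used here. Exons of 16 of the 39 Hox genes overlap another gene.

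Genes were kept by edgeR's filter (minimum count 10, minimum total 15), scaled by TMM and tested by the quasi-likelihood F test of edgeR 4.0.16 (R 4.3.3), with Benjamini-Hochberg adjustment over all genes tested. KO was compared with WT on the 6 libraries of a stage, stages on the 12 libraries of a genotype, and the interaction on all 24. Calls needed a log2 fold change of over 1 in either direction at an adjusted p below 0.05. CPM used one TMM scale over 24 libraries, and RPKM the merged exon length. Limits of 3 counts cover counting error only. The fits were tested on simulated data. The alternatives were DESeq2 1.42.0, its size factors, other filters, no fold limit, 1 fit of all libraries, plain library totals, a replicate block and leaving out each library. Values are printed for Hox genes at 1 CPM or more in a group or called, and names or ranges for the others, except *Hoxa7* and *Hoxd13*, whose values were added after they were seen. Results of 1 Hox gene and of 1 gene of the partner list are counted in the totals and not reported here. Replicates differed by more than sampling noise. The members and lists were chosen with earlier results of these data known.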

Additional observations from a re-analysis of the deposited data

How the results depend on the processing

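No result reversed under any setting. With DESeq2, with its size factors or with no filter on low counts, all 11 counts of called Hox genes stayed within 1.5 times the values reported. The count for WT gd16.5 against gd14.5, reported as 1, was 5 with no fold-change limit and 0 with all 24 libraries in 1 fit, where the adjusted p of *Hoxd11* was 0.0961. The count for WT gd19.5 against gd16.5, reported as 0, was 1 with a filter blind to the groups and 1 with no fold-change limit. With libraries left out in turn, the counts ran from 13 to 16 for WT gd14.5 against gd10.5, from 11 to 18 for KO gd14.5 against gd10.5, from 0 to 2 for WT gd16.5 against gd14.5, from 0 to 6 for KO gd16.5 against gd14.5 and from 0 to 1 for WT gd19.5 against gd16.5. They stayed at 0 for KO gd19.5 against gd16.5, for KO against WT at each stage and for the interaction. Of the single fold changes refitted this way, 394 kept their call, and 50 kept their direction and lost it. The cause was not tested.

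With the replicate number as a block, the count for KO gd16.5 against gd14.5 fell from 6 to 2, and each of the other 10 counts stayed within 1.5 times. The numbers were not treated as a pairing, since no comparison had a correlation over 0.1 in all 3 same-numbered pairs, and the highest single value was 0.406. At this depth, 3 counts in a library stand for 0.0803 to 0.143 CPM, and 5 Hox genes lay at or under that limit in every library. Under plain library totals 7 of 160 group means moved by more than 1 SD.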
